A study of Homo sapiens with 4 samples.

Results

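Solute carriers are membrane proteins that move amino acids, sugars, ions, metals, nucleotides and other small molecules across the plasma membrane and the membranes of organelles, by exchange, cotransport or facilitated diffusion. Their genes are named SLC, then a family number, a letter and a member number. The genes described here are those whose symbol starts with SLC and a digit, hyphenated names left out, and that own at least 1 row annotated promoter-TSS in the deposited peak table. They number 176 of the 11332 genes with such a row, and they hold 203 of the 14191 promoter-TSS rows. A gene's value is the sum of its promoter-TSS rows. The series asked what inhibition of KDM5 demethylases does in breast cancer cells, here to trimethylation of lysine 4 of histone H3 (H3K4me3).

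H3K4me3 was profiled by CUT&Tag, in which an antibody to the mark brings a transposase to the DNA beside it. The cells were HCC1428, an established luminal breast cancer line, and carried no labelled genetic change. The control group was given DMSO, the vehicle, and the treated group 2.5 µM C48, a small molecule inhibitor of KDM5; both were collected at day 5, with 2 libraries in each group. H3K4me3 is laid down at the promoters of active genes, and KDM5 enzymes remove it. The mark is a measure of chromatin and not of RNA, protein or transport. Values below are tags (mapped read ends) per 10 M aligned tags after TMM scaling, which sets the bulk of all rows to no change, so each rise or fall is relative to that bulk. Spike-in counts were not used here, so a gain or loss of the mark over the whole genome would not show. A lower value is not by itself a loss of the mark. The paper reports fewer fly spike-in reads after C48 and ties this to a global rise of H3K4me3. By its account, peaks in C48 are undercounted where spike-in reads are not used. Aligned tags ran from 58.4 to 88.4 M per library, and 64.0 to 66.3% of them lay in the merged peaks. Of 10 luminal breast markers 9 had a row within 1 kb of the start, with DMSO means of 41.04 to 1345 and GATA3 the one without a row; their sum was 6471 and 6397 in DMSO and 3777 and 3952 in C48, and TFF1 alone was above its DMSO values in C48. Of 5 blood markers CD14 alone had a row, at 18.7 in DMSO and 43.02 in C48, and of 5 stromal markers COL1A2 alone had one, at 41.2 and 85.95. The luminal sum and the other markers thus moved in opposite directions. The part of other cells in the values was not tested.

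Promoter sequences of 4 solute carrier genes with large rises or falls are shown as examples, picked after their values were seen. Each line gives the 250 bases before a RefSeq start (GRCh38.p14), 5′ to 3′ on the strand of the gene, with CpG dinucleotides in capitals. SLC26A1 (chr4:993405-993654, minus strand) and SLC29A1 (chr6:44219365-44219614, plus strand) had the largest rises among genes at a mean of at least 20. SLC25A36 (chr3:140941586-140941835, plus strand) had the largest fall, and SLC12A2 (chr5:128083516-128083765, plus strand) the largest among the inorganic ion families.
SLC26A1: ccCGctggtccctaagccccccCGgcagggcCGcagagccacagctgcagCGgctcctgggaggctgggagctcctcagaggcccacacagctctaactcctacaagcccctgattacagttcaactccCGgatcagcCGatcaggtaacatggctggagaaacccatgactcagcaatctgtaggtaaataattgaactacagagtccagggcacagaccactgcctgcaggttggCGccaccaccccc
SLC29A1: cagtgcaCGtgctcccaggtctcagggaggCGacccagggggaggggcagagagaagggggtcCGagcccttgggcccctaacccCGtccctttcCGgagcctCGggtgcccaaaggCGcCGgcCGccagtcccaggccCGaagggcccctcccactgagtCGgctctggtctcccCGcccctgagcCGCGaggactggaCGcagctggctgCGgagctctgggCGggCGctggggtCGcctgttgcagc
SLC25A36: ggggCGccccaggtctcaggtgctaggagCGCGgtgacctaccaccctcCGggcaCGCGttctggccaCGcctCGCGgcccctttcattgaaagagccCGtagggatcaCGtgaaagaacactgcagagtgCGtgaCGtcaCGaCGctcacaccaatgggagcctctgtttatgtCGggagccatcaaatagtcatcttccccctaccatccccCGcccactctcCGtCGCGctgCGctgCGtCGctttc
SLC12A2: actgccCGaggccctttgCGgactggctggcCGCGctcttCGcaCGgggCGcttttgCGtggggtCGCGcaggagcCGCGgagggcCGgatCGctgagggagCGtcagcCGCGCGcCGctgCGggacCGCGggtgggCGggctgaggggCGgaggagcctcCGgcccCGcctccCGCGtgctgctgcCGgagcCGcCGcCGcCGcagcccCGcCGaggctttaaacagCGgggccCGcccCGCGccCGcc
These stretches hold 7, 19, 23 and 40 CpG dinucleotides in that order, with a GC content of 60.4, 73.2, 62.8 and 79.6%. These 4 rises and falls were thus not split by GC content. In 500 bases around the strongest promoter row, median GC content was 69.2% at the 32 solute carrier genes called higher and 68.2% at the 84 called lower. The median CpG counts there were 40.5 and 47.5. Over all promoters the split was wider: median GC content was 61.4% at those called higher and 67.8% at those called lower. Their median CpG counts were 29 and 46.

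Of the 176 genes, 157 passed the filter of a mean of at least 5 and were tested, and 19 stayed under it, among them SLC2A3, SLC7A7, SLC32A1 and SLC38A4. Promoter H3K4me3 was higher in C48 at 32 of the 157 genes (20.4%), lower at 84 (53.5%) and not called at 41, with a median log2 fold change of -0.24 (limma, Benjamini-Hochberg adjusted p under 0.05 over all promoters). Over all 10009 promoters tested, 18.8% were higher and 58.5% lower, with a median of -0.34. The shares of solute carrier genes thus lay close to those of promoters at large. Direction leaned on the scaling. With the values as deposited, 68 solute carrier promoters were higher and 46 lower, against 35.5% and 38.4% of all promoters. Scaled by the column total the counts were 72 and 45 (all promoters, 38.6% and 36.2%), and with DESeq2 size factors 28 and 90 (16.3% and 61.8%). Scaled to the median of 56 ribosomal protein promoters they were 105 and 16 (60.4% and 12.7%). Under all 5 scalings 28 genes were higher and 16 lower, while 42 were called higher under some and lower under others. The rank of a gene among all promoters does not depend on the scaling and is given below as a percentile.

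The largest rise was at SLC26A1, which encodes a sulfate and oxalate exchanger. Its single promoter row (hg38 chr4:992648-994027, over the annotated start) read 66.3 and 73.6 in DMSO and 209 and 243 in C48. Both treated libraries stood well above both controls. The log2 fold change was 1.68 ± 0.09 (SE, adjusted p = 9.31e-18), at percentile 99.4 of all promoters.

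SLC29A1, whose product ENT1 is the main equilibrative carrier of nucleosides and of nucleoside drugs, was the only member of its class with a promoter row. Its row (chr6:44219160-44219812) read 79.5 and 104 in DMSO and 185 and 192 in C48. The controls were further apart than the treated libraries, and the groups did not overlap. The log2 fold change was 1.04 ± 0.09 (SE, adjusted p = 5.95e-12). Of the other SLC29 genes, summed within 1 kb of the start, SLC29A2 (-0.67) and SLC29A4 (-0.32) were lower and SLC29A3 (0.32) was higher.

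SLC25A45, a member of the mitochondrial carrier family, read 53.0 and 62.1 in DMSO and 108 and 116 in C48, a log2 fold change of 0.95 ± 0.10 (SE, adjusted p = 4.85e-10). SLC9A5, a sodium-proton exchanger whose row had no called peak in any library, read 91.6 and 101 in DMSO and 159 and 168 in C48, a log2 fold change of 0.76 ± 0.08 (SE, adjusted p = 8.29e-10). SLC6A4, the serotonin transporter, read 19.9 in each DMSO library and 32.4 and 33.4 in C48, which is 0.70 ± 0.16 on the log2 scale (SE, adjusted p = 0.000207). The groups were separate at each of these genes, and the last is a weak promoter in these cells. SLC7A8, the light chain LAT2 of a neutral amino acid exchanger, had a log2 fold change of 0.62 and SLC24A4, a potassium-dependent sodium-calcium exchanger, one of 0.56. The SLC7A8 value sums 2 rows at separate starts. The row at chr14:23154058-23154563 rose by 1.35, and the row at chr14:23183440-23183692 (-0.23) was not called. SLC30A9, the remaining gene of the 8, is taken up with the flanking rows, since its direction depends on which rows are summed. Below the level of 20 set for naming the largest changes lay SLC49A3, with 2.67 and 3.83 in DMSO and 12.7 and 10.5 in C48, and SLC30A2, a zinc exporter, with 4.06 and 6.27 against 13.6 and 11.2.

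**Figure D1:**
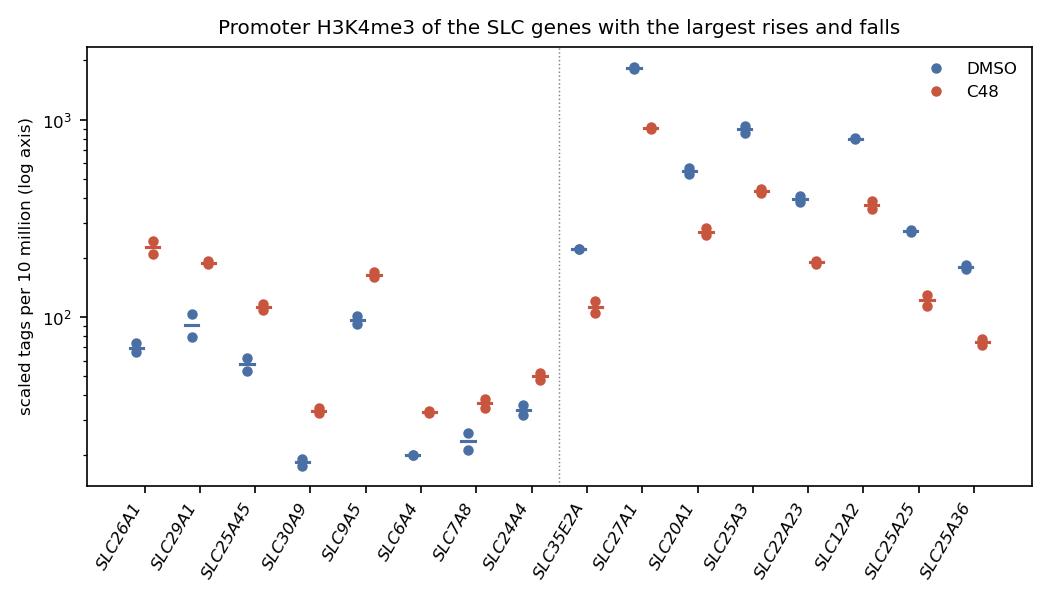
Promoter H3K4me3 of the 8 solute carrier genes with the largest called rises (left of the dotted line) and the 8 with the largest called falls, in scaled tags per 10 M on a log axis; points are libraries (2 per group) and short bars are group means. The groups do not overlap at any of these genes; SLC26A1 has the widest gap among the rises, and SLC27A1 is the strongest promoter among the falls.

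The largest fall was at SLC25A36, which carries pyrimidine nucleotides across the inner mitochondrial membrane. Its row (chr3:140941767-140942048) read 183 and 174 in DMSO and 72.1 and 77.1 in C48. Replicates lay close together and the groups far apart. No library had a called peak at this row, and the other rows within 5 kb held more signal (464 and 462 in DMSO, 303 and 298 in C48). The log2 fold change was -1.25 ± 0.09 (SE, adjusted p = 8.74e-15), at percentile 0.924 of all promoters, and within 1 kb it was -0.77, at percentile 13.4.

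SLC25A25, a calcium-regulated carrier of ATP-magnesium and phosphate, read 269 and 277 in DMSO and 114 and 130 in C48, a log2 fold change of -1.16 ± 0.07 (SE, adjusted p = 1.40e-15). Within 500 bases of that row lies the start of another coding gene, NAIF1 (GENCODE v44), so the signal cannot be assigned to one of the pair. SLC25A3, the mitochondrial phosphate carrier, read 859 and 924 in DMSO and 443 and 426 in C48, a log2 fold change of -1.04 ± 0.05 (SE, adjusted p = 2.87e-19). All 3 of these genes belong to the SLC25 family.

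SLC12A2 encodes NKCC1, the sodium-potassium-chloride cotransporter of secretory epithelia. Its row (chr5:128083261-128084024) read 804 and 796 in DMSO and 353 and 385 in C48. The treated values were well under the controls in both libraries, with a log2 fold change of -1.12 ± 0.05 (SE, adjusted p = 1.47e-19). STK39 and OXSR1, the kinases known to phosphorylate NKCC1, also had lower promoter values, with log2 fold changes of -0.91 and -0.99. Of the WNK kinases that act above them and had a tested promoter row, WNK4 was higher (0.30), and WNK3 (0.31) and WNK2 (-0.03) were not called.

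SLC20A1, a sodium-phosphate cotransporter, read 566 and 529 in DMSO and 259 and 283 in C48, a log2 fold change of -1.01 ± 0.06 (SE, adjusted p = 4.72e-17). SLC27A1, a fatty acid transport protein, was among the strongest promoters at 1815 and 1850 in DMSO and 896 and 918 in C48, a log2 fold change of -1.01 ± 0.04 (SE, adjusted p = 7.16e-22). SLC22A23, an orphan member of the organic ion family, fell by 1.07 and SLC35E2A, a member of the nucleotide sugar family, by 0.97 on the log2 scale; the latter has a near-identical copy, SLC35E2B, that may share its reads. Of these 8 falls, each kept its call under all 5 scalings. Summed within 1 kb of the start, the change was smaller by over 1.5 times at SLC25A25 (-0.53), as at SLC29A1 (0.69) and SLC7A8 (0.17) among the rises, with the calls kept.

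The change followed the level of the promoter, among solute carriers as among all promoters. Of the 18 solute carrier genes with means of 5 to 20, 9 were higher and 2 lower, with a median log2 fold change of 0.48 (all promoters at that level, 37.3% higher and 9.3% lower, median 0.31). At 20 to 50, 7 of 23 were higher and 1 lower (all promoters, 37.2% and 20.4%). The split then turned: at 100 to 200, 5 of 27 were higher and 15 lower (all promoters, 19.8% and 57.3%), and at 200 to 500, 2 of 32 were higher and 25 lower (7.99% and 82.3%). All 26 genes between 500 and 1000 were lower, with a median of -0.48, against 94.7% of all promoters at that level and a median of -0.65. The mean of each gene includes the treated libraries, so level and change share data.

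Above 1000 stood SLC25A32, a mitochondrial folate carrier, SLC27A1, SLC25A40, which imports glutathione into mitochondria, and SLC9A2. The first of these had the highest value, 2468 and 2555 in DMSO and 1436 and 1457 in C48. SLC25A40 read 1513 and 1533 in DMSO and 802 and 834 in C48. The start of DCAF13 lies within 500 bases of the SLC25A32 row and that of DBF4 within 500 bases of the SLC25A40 row. Both were lower, at -0.80 and -0.90 on the log2 scale. SLC9A2, a sodium-proton exchanger of epithelia, went the other way, with 977 and 937 in DMSO and 1099 and 1105 in C48 (log2 fold change 0.20 ± 0.04, SE, adjusted p = 1.69e-05). Over all 375 promoters above 1000, 2 were higher and 366 lower, and SLC9A2 was 1 of the 2. It was higher under all 5 scalings. Next in level came SLC2A1, which encodes the glucose transporter GLUT1, with 1230 and 1295 in DMSO and 696 and 741 in C48.

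**Figure D2:**
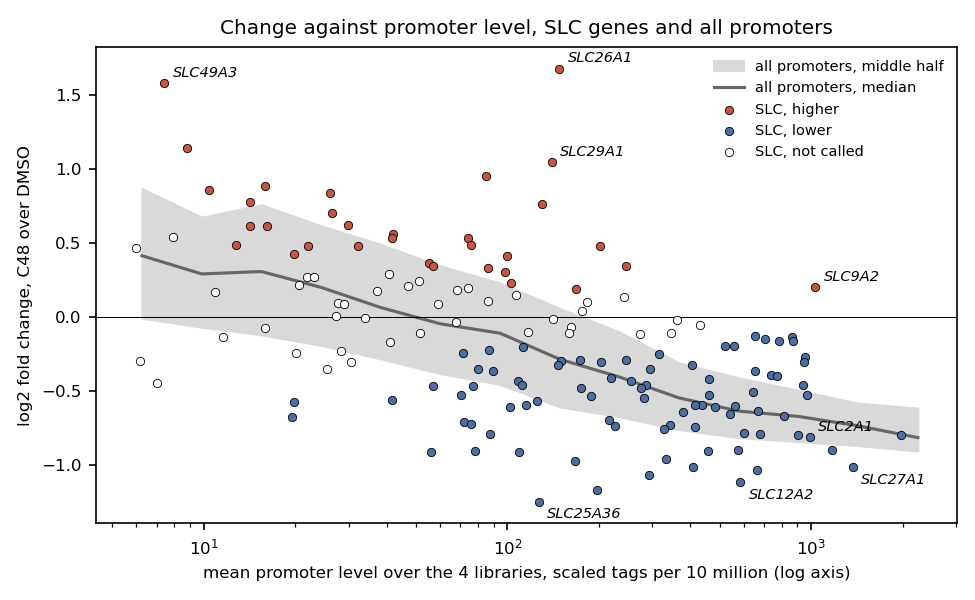
Log2 fold change of promoter H3K4me3 (C48 over DMSO) against the mean promoter level over the 4 libraries (log axis), 1 point for each of the 157 solute carrier genes, filled by call; the grey band spans the lower to the upper quartile of all promoters and the line is their median. Weak solute carrier promoters sit mostly above 0 and strong ones below it, along the band, with SLC26A1, SLC29A1 and SLC9A2 above it.

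Genes were then grouped by the substrate class of their family. Over all promoters tested, 18.8% were higher and 58.5% lower. Among classes of over 10 genes, the median level ran from 74.3 for amino acid families to 389 for metal families. Whether classes differed beyond their level was not tested. Amino acid and neurotransmitter families (25 tested) had 6 higher and 13 lower, with a median of -0.46. SLC1A5 (ASCT2), the glutamine importer, fell by 0.74 (549 and 486 in DMSO, 296 and 322 in C48) and SLC38A2 (SNAT2), a sodium-coupled neutral amino acid importer, by 0.96 (420 and 461 against 219 and 233). SLC3A2, the heavy chain shared by the amino acid exchangers LAT1 and xCT, fell by 0.79 (859 and 864 against 474 and 524). The rises of the class were at weaker promoters, among them the monoamine transporters SLC6A4 and SLC6A2 (12.4 and 9.59 in DMSO, 20.005 and 14.8 in C48). SLC43A3, counted here by its family and not by its own substrate, was another (12.05 and 9.77 in DMSO, 24.1 and 17.99 in C48).

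Mitochondrial carriers (26 tested) had 2 higher, SLC25A45 and SLC25A51, and 16 lower, with a median of -0.42. SLC25A51 imports NAD into mitochondria and read 9.76 and 10.6 in DMSO and 17.4 and 18.8 in C48. No library had a called peak at that row, and the sum within 1 kb of its start was lower, by 0.48. SLC25A28 and SLC25A37, the mitoferrins that bring iron to mitochondria, fell by 0.90 each on the log2 scale. No library had a called peak at the promoter row of SLC25A37. Within 1 kb the change was -0.76 at SLC25A28 and -0.36 at SLC25A37, the latter at percentile 50.1. SLC25A10, the dicarboxylate carrier, had a log2 fold change of -0.01 and was not called.

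Metal families (14 tested) had 10 lower and 2 higher, with a median of -0.34. The 5 tested members of the SLC39 zinc importer family were lower, the largest fall of them at SLC39A9 with -0.70. SLC39A1 and SLC39A13 were higher under 3 of the 5 scalings, and within 1 kb SLC39A11 was higher (0.32). The median level of the 5 was 704, and of all promoters between 500 and 1000 the share lower was 94.7%. SLC39A6 (LIV-1), is an importer known as estrogen-regulated in breast, and read 1000.4 and 996 in DMSO and 624 and 631 in C48. The start of ELP2 lies within 500 bases of the SLC39A6 row. SLC39A6 sat at percentile 24.5 of all promoters, and its sign turned with ribosomal protein scaling (0.0068, not called). SLC31A1, the copper importer, fell by 0.39, and SLC11A2 (DMT1), an iron importer, had a log2 fold change of -0.02 and was not called.

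Inorganic ion families (34 tested) were the most evenly split class of over 10 genes, with 10 higher, 15 lower and a median of -0.06. Their median level was 95.9, and of all promoters at 50 to 100, 30.2% were higher and 36.3% lower. All 4 tested SLC26 anion exchangers had positive values, and 3 of them were called higher, SLC26A1, SLC26A5 and SLC26A2. Summed within 1 kb, SLC26A1 and SLC26A5 stayed higher, while SLC26A2 (-0.36) and SLC26A6 (-0.29) were lower. The sodium bicarbonate cotransporter SLC4A4 read 65.1 and 61.2 in DMSO and 93.2 and 84.2 in C48, a log2 fold change of 0.48. SLC12A8 read 170 and 167 in DMSO and 228 and 242 in C48, also 0.48. Of 8 tested genes named SLC9, the scaffold SLC9A3R2 included, 3 were higher and 2 lower. One of the rises, SLC9A7P1, is a pseudogene that may share reads with SLC9A7.

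Nucleotide sugar families, which feed glycosylation in the Golgi, had 1 higher (SLC35F5), 10 lower and 6 not called of 17, with a median of -0.30. Organic solute families had 4 higher, 10 lower and 5 not called of 19. Of the monocarboxylate family SLC16, 3 of 6 were higher and 1 lower. SLC16A3 (MCT4), the lactate exporter of glycolytic cells, read 218 and 214 in DMSO and 268 and 281 in C48, a log2 fold change of 0.35 ± 0.06 (SE, adjusted p = 1.08e-05). SLC15A4, an endolysosomal histidine and peptide carrier, read 163 and 169 in DMSO and 129 and 140 in C48, a log2 fold change of -0.30 that became 0.03, not called, with the values as deposited.

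Sugar families had 3 higher and 4 lower of 7. SLC2A1 fell by 0.81 and SLC2A13, a proton myo-inositol cotransporter, by 0.60, while SLC2A10 (GLUT10) read 79.6 and 91.5 in DMSO and 117 and 111 in C48. SLC5A7, counted here by its family, carries choline. Of the 4 vitamin carriers, SLC19A1, the reduced folate carrier, read 304 and 357 in DMSO and 247 and 231 in C48 (log2 fold change -0.46). SLC23A2, which takes up ascorbate, fell by 0.73. The other members went the other way: SLC46A3 was higher in its promoter row (0.42) and SLC52A1 (0.27) was not called. The names SLC4A1AP, SLC7A6OS and SLC9A3R2 fit the rule but do not denote carriers: 2 of the 3 were lower and none higher.

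**Figure D3:**
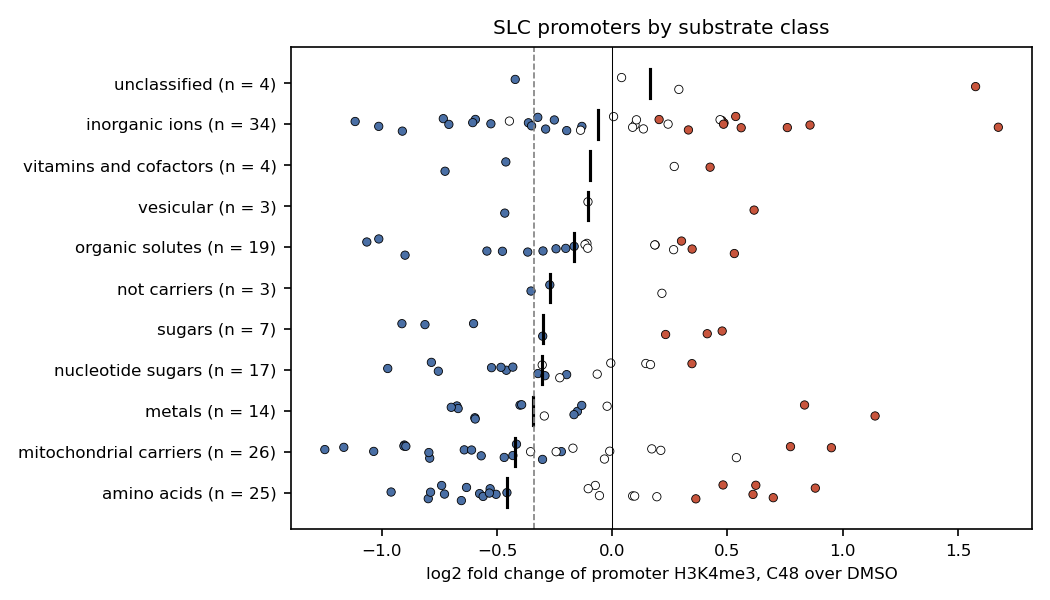
Log2 fold change of promoter H3K4me3 (C48 over DMSO) of the tested solute carrier genes by substrate class, for classes of at least 3 genes; red points are called higher, blue lower and white not called, black ticks are class medians and the dashed line is the median of all promoters (-0.34). Inorganic ion families have a median of -0.06, amino acid families of -0.46, and SLC26A1 is the point farthest to the right.

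Some of the 20 fixed genes, looked at whatever their change, had no promoter-TSS row but had rows within 1 kb of the start. Summed over those rows, SLC30A1, the zinc exporter of the plasma membrane, read 1948 and 1994 in DMSO and 1076 and 1088 in C48, a log2 fold change of -0.86. SLC7A5, the light chain LAT1, read 324 in both DMSO libraries and 182 and 211 in C48 (-0.72). SLC35A1, which brings CMP-sialic acid to the Golgi, fell by 0.65. SLC7A11, the light chain of the cystine-glutamate exchanger xCT, read 96.1 and 69.0 in DMSO and 94.9 and 112 in C48; it was called higher at 0.33 (SE 0.11), although its groups overlapped. SLC46A1, the proton-coupled folate carrier, was higher at 0.24. SLC16A1 and SLC25A5 were not analysed here. In all, 165 solute carrier genes had rows but none annotated promoter-TSS; 77 of them had a testable sum within 1 kb, with 17 higher, 43 lower and 17 not called. Over all 14649 genes summed within 1 kb, 18.8% were higher and 64.5% lower. Of the 32 genes higher in their promoter rows, 6 were lower within 1 kb, namely SLC30A9, SLC25A51, SLC26A2, SLC7A6, SLC46A3 and SLC35F5, and none went the opposite way; over all genes higher in promoter rows 13.4% were lower within 1 kb.

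Several promoters held a falling centre and a rising edge, though the rows of a gene can also lie at separate starts. Of 20 solute carrier genes with more than 1 tested promoter row, 8 had rows called in opposite directions, and in all 8 the row with the highest level was the lower one. Over all 1946 genes with several such rows 21.1% had opposite calls, and the strongest row was the lower one in 94.4% of those. Opposite calls of this kind were thus general. Whether their share differed at solute carriers was not tested. SLC40A1, which encodes ferroportin, the iron exporter, is one of the 8. Its row over the start (chr2:189580279-189581312) read 756 and 745 in DMSO and 554 and 576 in C48, a log2 fold change of -0.41. The adjoining upstream row (chr2:189581386-189582032) read 154 and 158 in DMSO and 246 and 278 in C48, a log2 fold change of 0.74. Apart from the added 1, the difference between the rows does not depend on scaling, while the sum, -0.13 ± 0.04 (SE, adjusted p = 0.00481), turned to 0.20 as deposited.

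At SLC12A9 the row over the start (chr7:100852423-100853036) fell by 0.58 (556 and 613 in DMSO, 389 and 393 in C48). The rows 305, 667 and 994 bases upstream of another of its annotated starts rose by 0.68, 1.36 and 1.64. They lie between chr7:100825729 and 100826703, apart from the falling row, and EPHB4 starts within 500 bases of 2 of them. At SLC31A1 the row at the start fell by 0.57 and the row centred 725 bases downstream rose by 0.87 (59.98 and 65.2 in DMSO, 116 and 114 in C48). SLC12A4, SLC20A1, SLC20A2, SLC35A2 and SLC41A2 make up the rest of the 8. At SLC20A2 a rising row (chr8:42501018-42501610) also lies at another start than the falling row (chr8:42541639-42542436). Not all wide promoters split: both rows of SLC2A1 fell, by 0.92 and 0.70, and both rows of SLC1A5 fell, by 0.90 and 0.55.

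Rows that name a solute carrier gene but are not annotated promoter-TSS are a readout the choice of genes did not use. Of 417 such rows tested, 168 were higher (40.3%) and 135 lower (32.4%), with a median of 0.16, against 43.3% and 26.7% of all 31052 rows outside promoters and a median of 0.25. By distance from the named start, promoter rows included, the 274 solute carrier rows within 0.5 kb had a median of -0.29, and the 43 rows at 1 to 2 kb had 27 higher, 5 lower and a median of 0.64. All rows at 1 to 2 kb were 65.4% higher and 15.4% lower, also with a median of 0.64. Intergenic solute carrier rows had 60 higher and 12 lower of 106, against 50.1% and 11.9% of all intergenic rows.

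The largest rise outside promoters was in an intron of SLC25A45 (chr11:65380903-65381190, 925 bases from the named start), which read 7.11 and 9.59 in DMSO and 42.4 and 40.04 in C48, a log2 fold change of 2.19 ± 0.19 (SE, adjusted p = 2.04e-15). An intron of SLC44A5, a member of the choline transporter-like family, held a row (chr1:75373888-75374778) that read 27.6 and 28.1 in DMSO and 126 and 132 in C48, a log2 fold change of 2.17. A pair of rows in the first intron of SLC1A2, the glial glutamate transporter, 15042 and 15563 bases from its start, rose by 2.01 and 1.97. Its promoter row had no called peak in any library, and its change was not called (16.6 and 15.9 in DMSO, 17.6 and 13.4 in C48). The sum within 1 kb of the SLC1A2 start was lower, by 0.22 (327 and 332 in DMSO, 270 and 296 in C48). At each of these intron rows both treated libraries were several times the controls.

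The largest fall outside promoters was in an intron of SLC38A8, a sodium-coupled neutral amino acid transporter (chr16:84013987-84014559), at 122 and 138 in DMSO and 29.6 and 32.7 in C48. Its log2 fold change was -2.03 ± 0.11 (SE, adjusted p = 3.96e-24), and all 4 libraries had a called peak there. The other 3 largest falls lay next to starts, at SLC4A7 (-1.12), SLC38A2 (-1.12) and SLC9A3R1 (-1.11). SLC9A3R1 is a scaffold protein that binds carriers and is not itself one.

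Flanks were compared with promoter rows inside each library, which takes out the scaling. The flank of a gene is the sum of its other rows within 5 kb of the start. Of the 89 solute carrier genes with both, the ratio of flank to promoter was higher in C48 at 39 (43.8%) and lower at 21 (23.6%), with a median change of 0.28, against 44.2% and 25.6% of all 4970 genes and a median of 0.21. Where the flank held less signal than the promoter rows (44 genes), the ratio was higher at 30 and lower at 2. Where the flank held more (45 genes), it was higher at 9 and lower at 19. The weaker of the 2 gained on the stronger at 49 of the 60 genes called. Over all genes the ratio was higher at 72.1% and lower at 3.66% where the flank was the weaker, and at 20.4% and 44.4% where it was the stronger.

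SLC20A2, a sodium-phosphate cotransporter, had the largest gain of flank over promoter among genes at a mean of at least 20 in both, 1.78 ± 0.11 on the log2 scale (SE). Its flank read 68.4 and 59.6 in DMSO and 187 and 201 in C48, and its promoter rows 556 and 555 against 477 and 491. SLC39A14, a zinc and iron importer, gained 1.49, SLC25A45 1.47 and SLC1A5 1.30. At SLC1A5 the flank rose from 373 and 360 to 545 and 538 while the promoter rows fell, so that the sum within 1 kb was not called (log2 fold change -0.05).

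SLC30A9 had the largest loss of flank against promoter, at -1.58 ± 0.10 (SE). Its promoter row lies upstream of the start and rose by 0.83 (19.2 and 17.6 in DMSO, 34.6 and 32.5 in C48), but no library had a called peak there. The flank, with most of the signal, read 297 and 283 in DMSO and 168 and 177 in C48, and the sum within 1 kb fell by 0.58. SLC35F5 (-1.11), SLC7A6 (-0.86) and SLC25A39 (-0.77) were alike in this: their promoter rows read at most 64.9 and their flanks at least 384. At such genes the promoter-TSS rows held the smaller share of the signal.

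**Figure D4:**
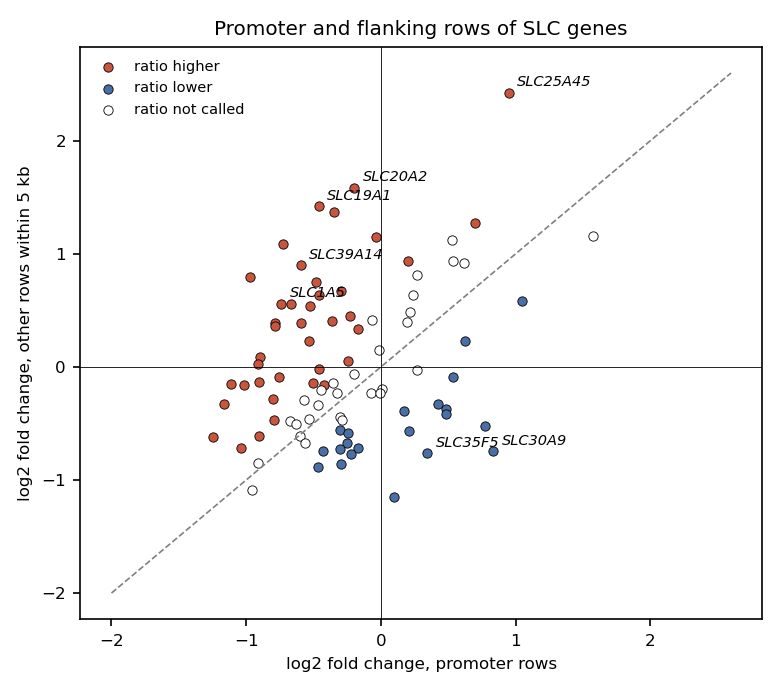
Log2 fold change of rows outside promoter-TSS within 5 kb of the start against that of the promoter rows, 1 point for each of 89 solute carrier genes, filled by the call of the flank to promoter ratio; the dashed line marks equal change. The 39 genes with a higher ratio lie above the line, SLC25A45 and SLC20A2 among them, and the 21 with a lower ratio lie below it, with SLC30A9 and SLC35F5 in the lower right.

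**Figure D5:**
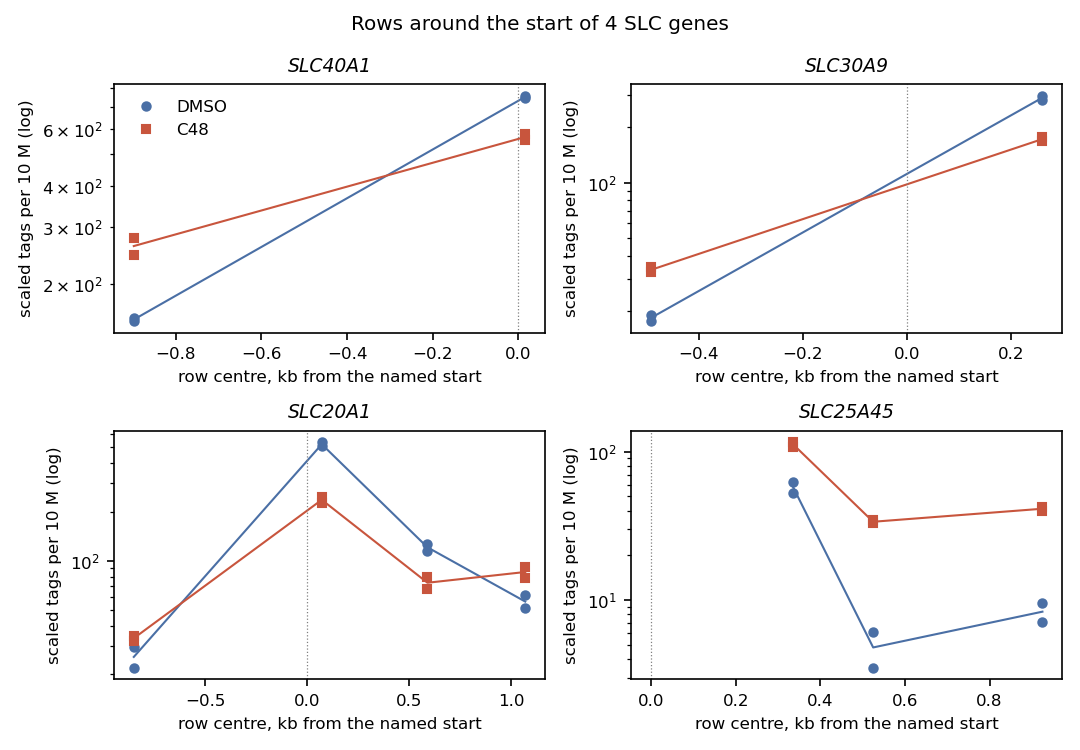
H3K4me3 of each tested row within 5 kb of the named start of SLC40A1, SLC30A9, SLC20A1 and SLC25A45, in scaled tags per 10 M on a log axis, against the distance of the row's centre; points are libraries and lines join group means. The row nearest the start is lower in C48 at SLC40A1, SLC30A9 and SLC20A1 and the row farthest upstream is higher, while all rows of SLC25A45 are higher.

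CpG content was counted in 500 bases of hg38 around the strongest promoter row of each gene. The 157 solute carrier promoters had a median of 45 CpG dinucleotides, and all promoters with a window had 41. Of the 10 solute carrier promoters with 10 to 19, 6 were higher and none lower, with a median log2 fold change of 0.41 and a median level of 29.2. Of the 102 with 40 or more, 18 were higher and 60 lower, with a median of -0.30 and a median level of 175. SLC26A1 had 14 and SLC12A2 had 73, while SLC24A4, among the rises, had 76. Over all promoters 42.7% were higher at 10 to 19 and 11.7% at 40 or more, and the level rose with CpG content there too, from a median of 32.8 to 280.5. The motif GGGCGG, searched on both strands, was in 86.0% of solute carrier windows and 77.5% of all, and CCAAT, also on both strands, in 39.5% and 37.9%. A match describes the letters of a window and not the binding of a factor.

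Of the 157 promoters, 22 had the start of another coding gene within 500 bases, and 18 of them were lower and none higher. Over all promoters with such a neighbour, 72.4% were lower and 10.8% higher. Those solute carrier promoters were also stronger, with a median level of 501 against 106 for the rest. Between 100 and 500 the lower share was 7 of 8 with a neighbour and 33 of 51 without. Over all promoters at that level it was 78.3% and 70.7%. At 500 and over, 11 of 11 solute carrier promoters with a neighbour and 18 of 19 without were lower (all promoters, 97.0% and 94.2%).

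Transporters outside the SLC names were counted in the same way, beside 18.8% higher and 58.5% lower over all promoters, with a median of -0.34. Whether any list differed from these shares was not tested. Of 20 ATP-binding cassette genes tested, 4 were higher and 7 lower, with a median of -0.06. ABCC11, an apocrine efflux pump, read 383 and 407 in DMSO and 541 and 544 in C48, and ABCB8, a mitochondrial member, read 259 and 244 against 115 and 128. Atypical carriers of the MFSD, SV2 and like families had 3 higher and 14 lower of 29, with SV2B at 1.12 and MFSD11 at -0.99. Of 12 ion-pumping P-type ATPases 2 were higher and 7 lower, with a median of -0.73, and of 14 chaperones and regulators 1 was higher and 9 lower, with a median of -0.31. The SLCO family had 1 higher and 2 lower of 3.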

How the data were processed

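H3K4me3 CUT&Tag was measured in HCC1428 cells, with 2 DMSO and 2 C48 libraries grouped by the sample titles; the file tags the treated columns GNE. Per the submitters' processing notes, the authors aligned reads with Bowtie2 version 2.3.4.1 to hg38; dm6 is also named there. The deposited values are a signal, HOMER tags in merged peaks per 10 M aligned tags (HOMER version not given in the sources used here). Fly spike-in factors were not used here. Peaks were called per library and merged over libraries that include other cell lines: 110018 rows, 45692 of them called in 1 or more of these 4 libraries. The deposited repeat table was not used here. The labels call the libraries biological replicates; separate cultures are not stated, so the p-values cover only the spread among these libraries, which may be technical.

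Of the values, 100% were whole tags within 0.1 tags. Values were divided by the column total times the TMM factor (edgeR 4.0.16). Promoter-TSS rows were summed per gene, and sums with a mean of at least 5 were tested on log2(value + 1) with limma 3.58.1 (trend), adjusted over all genes (Benjamini-Hochberg, threshold 0.05), so fold changes of low genes are understated. Rows outside promoters and the flank to promoter ratio were tested alike. Alternatives were other scalings, pseudocounts, filters and row choices, left-out libraries, a replicate block, and edgeR and DESeq2 1.42.0 on the recovered tags. The fits were tested on simulated data. Same-numbered libraries did not deviate together (correlation -0.03 over 10009 promoters).

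The genes and lists were chosen with earlier results of these data known. Named genes were the 8 largest rises and falls called, without overlap, at a mean of at least 20, the 5 highest promoters and 20 fixed genes, not all of which are reported here; for other rows and for the ratio, the 4 largest each way. Others named in groups were picked as examples after their values were seen. Families were put in classes by the known substrates of the family. Promoter sequences are from RefSeq (GRCh38.p14), which matched 133 of 176 genes. Counting intervals were not used, as replicate spread sets the error.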

Additional observations from a re-analysis of the deposited data

How the results depend on the processing

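The number of solute carrier promoters called, and the sign of their median, moved with the scaling. As deposited 68 were higher and 46 lower, with a median log2 fold change of 0.084; by column total 72, 45 and 0.12; by ribosomal protein promoters 105, 16 and 0.42; by DESeq2 size factors the median was -0.31. The median of all promoters moved with it, and the solute carrier median stayed 0.090 to 0.095 above it. With all rows within 1 kb summed, 50 genes were higher and 139 lower of 235, median -0.29, a different set of genes. The median was -0.21 with a pseudocount of 5, -0.20 without a filter, -0.30 with a filter of 20 and -0.29 with called rows only, and it ranged from -0.25 to -0.21 when 1 library was left out. Sign changes of named genes were SLC40A1 (0.20 as deposited, 0.24 by column total, 0.54 by ribosomal protein promoters), SLC15A4 (0.033, 0.074 and 0.37), SLC39A6 (0.0068) and SLC19A1 (0.21) by ribosomal protein promoters, and SLC30A9 (-0.58) within 1 kb. The cause was not tested.

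SLC40A1 lost its call without DMSO replicate 1 (-0.13) or C48 replicate 1 (-0.09). With 1 library left out, where the lone library is taken to vary like the rest, 24 to 32 promoters were higher and 80 to 82 lower. Tests on tags gave 32 and 83 (edgeR) and 26 and 81 (DESeq2). The libraries share a number only, and a replicate block left 32 higher and 84 lower, median -0.24; it changed no call among the named promoters. Depth bears most on promoters under 20, where 1 tag is worth 0.113 to 0.171 units.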
